A study of Homo sapiens with 6 samples.

Results

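The clustered HOX genes and their cofactors of the MEIS and PBX families were described in MOLM14, a human cell line from an acute myeloid leukaemia of the monocytic kind, with a KMT2A-MLLT3 fusion. Members were the protein-coding genes with symbols HOXA, HOXB, HOXC or HOXD, MEIS or PBX followed by a number, each read from its brightest named array feature. The gene table holds 46 such genes, and 33 of them (71.7%) had a named feature among the 14884 named genes of the array. Of the HOXB cluster 10 of 10 were measured, of HOXD 9 of 9, of HOXC 7 of 9 and of HOXA 1 of 11, and 3 MEIS and 3 PBX genes were measured. The other 13 genes were not analysed here. Total RNA was measured on 6 whole-transcript arrays. For 3 arrays the cells had received siRNA against ATF4, a transcription factor of the integrated stress response (siATF4), and for 3 a non-targeting control siRNA pool (siCTRL). Both siRNAs were used at 70 nM and delivered with the Neon system, so the controls had undergone transfection too. The time from transfection to harvest is not stated in the labels. The labels call the samples technical replicates of a single cell line, so the spread behind each p-value may be technical only.

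HOX genes encode homeodomain transcription factors that lie in 4 clusters, on chromosomes 7, 17, 12 and 2 for HOXA to HOXD, and set position along the body axis in the embryo. In blood, several HOXA and HOXB genes are active in stem and progenitor cells and are shut down as cells mature. MEIS and PBX proteins are homeodomain proteins of the TALE class that bind DNA together with HOX proteins and raise their selectivity. KMT2A methylates histone H3 at HOX promoters, and fusions of KMT2A are known to keep HOXA genes and MEIS1 active in leukaemia.

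The sequences shown are those of the genes whose levels varied most between arrays or moved with the replicate number: the 250 bases before the annotated start of PBX3, MEIS1, HOXD13 and MEIS2, 5′ to 3′ on the gene's strand, from RefSeq on GRCh38.p14. PBX3 lies on the plus strand (chr9:125747933-125748182), as do MEIS1 (chr2:66434875-66435124) and HOXD13 (chr2:176092471-176092720). MEIS2 lies on the minus strand and has 2 windows, the outer at chr15:37099107-37099356 and the inner at chr15:37098697-37098946. Capitals mark matches to any of the 5 motifs searched on both strands.
PBX3: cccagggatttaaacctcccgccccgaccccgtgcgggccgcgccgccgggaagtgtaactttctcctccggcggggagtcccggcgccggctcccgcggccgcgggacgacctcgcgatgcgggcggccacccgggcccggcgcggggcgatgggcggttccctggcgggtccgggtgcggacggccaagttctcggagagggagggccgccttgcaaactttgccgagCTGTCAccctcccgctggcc
MEIS1: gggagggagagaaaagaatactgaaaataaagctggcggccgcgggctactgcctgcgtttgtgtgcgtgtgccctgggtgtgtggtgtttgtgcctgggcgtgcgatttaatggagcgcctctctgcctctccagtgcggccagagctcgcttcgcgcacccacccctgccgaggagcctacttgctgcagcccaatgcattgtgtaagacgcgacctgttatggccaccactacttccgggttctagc
HOXD13: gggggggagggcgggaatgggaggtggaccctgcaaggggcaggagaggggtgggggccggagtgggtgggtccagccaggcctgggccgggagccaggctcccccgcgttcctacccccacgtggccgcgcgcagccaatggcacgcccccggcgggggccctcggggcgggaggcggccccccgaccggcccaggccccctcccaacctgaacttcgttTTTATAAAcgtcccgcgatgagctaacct
MEIS2, outer window: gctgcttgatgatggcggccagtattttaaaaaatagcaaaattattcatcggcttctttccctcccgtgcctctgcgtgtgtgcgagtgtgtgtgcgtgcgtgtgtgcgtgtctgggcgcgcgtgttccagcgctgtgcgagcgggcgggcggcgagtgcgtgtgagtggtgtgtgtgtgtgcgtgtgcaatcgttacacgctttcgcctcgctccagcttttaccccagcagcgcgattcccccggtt
MEIS2, inner window: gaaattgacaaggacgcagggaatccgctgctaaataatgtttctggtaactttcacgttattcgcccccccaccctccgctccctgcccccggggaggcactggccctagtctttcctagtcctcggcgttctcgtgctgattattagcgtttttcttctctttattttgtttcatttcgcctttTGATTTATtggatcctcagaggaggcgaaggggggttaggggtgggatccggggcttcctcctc
The motifs were TGATGNAA, the core of the element that ATF4 binds with C/EBP partners, the cAMP response element TGACGTCA, TGATNNAT for PBX with HOX, TGACAG for MEIS and the TATA box TATAAA, and matches may overlap. In PBX3 the capitals are a MEIS core on the opposite strand, 20 to 15 bases before the start. In HOXD13 they are a TATA box read on both strands, from 29 to 22 bases before the start, and in the inner MEIS2 window a PBX-HOX composite that begins 64 bases before the start. The table holds windows for 17 of the 33 members, 19 windows in all. Of these, 0 held TGATGNAA (3.14% of all 35116 windows), 0 held TGACGTCA (1.65%), 4 held TGATNNAT (6.47%), 2 held TGACAG (13.0%) and 1 held TATAAA (10.7%). These matches describe letters in a short window and locate no binding.

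MicroRNA genes lie inside the HOX clusters, and the miR-196 family is shown because its HOXA copy, MIR196B, was above the array median on all 6 arrays, while MIR196A1 in HOXB was on 0 of them and MIR196A2 in HOXC on 1. The seed (bases 2 to 8) is in capitals.
miR-196b-5p: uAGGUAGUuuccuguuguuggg
miR-196a-5p: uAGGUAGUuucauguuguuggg
The first comes from MIR196B (chr7:27169528-27169549, minus strand). The second comes from MIR196A1 (chr17:48632532-48632553, minus strand) and MIR196A2 (chr12:53991762-53991783, plus strand), all on GRCh38.p14. Both share the seed AGGUAGU and differ by the substitution C12A, counted from 1 at the 5′ end of miR-196b-5p. The array features carry the accessions of the hairpin transcripts, so the values given for these genes do not separate the mature arms.

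Across the whole series, array medians lay between 3.88 and 3.96 log2. ATF4, the targeted gene, read 7.72, 7.88 and 8.14 with siATF4 against 8.67, 8.64 and 8.85 with siCTRL. Its log2 difference was -0.80 (SE 0.14, limma unadjusted p = 0.00082, limma adjusted p = 1.00, two-sided exact permutation p = 0.1). That difference corresponds to 57.4% of the control level, so much of the ATF4 RNA remained. One array stood apart. On siATF4 replicate 1, 266 genes (1.79%) lay more than 1 log2 from all 5 other arrays, 133 above and 133 below them, while the other arrays had 0 to 10 such genes each. Its correlation with the other arrays over all genes was 0.953 to 0.967, against 0.970 to 0.994 for pairs without it. Of 11 measured markers of myeloid and monocytic cells 10 lay above the array median on all arrays (all but CD14, 3.22 to 4.18), and 3 of the 11 were more than 1 log2 apart on siATF4 replicate 1. The granule enzyme MPO read 5.58 there and 8.45 to 10.4 elsewhere, the granule protease CTSG 7.64 and 8.93 to 9.35, and the macrophage receptor CSF1R 8.18 and 5.05 to 6.57. Above the array median on all arrays were also 1 of 3 T cell, 0 of 2 B cell, 1 of 2 erythroid, 2 of 5 epithelial and 0 of 2 fibroblast markers. The B cell marker PAX5 was above it on every array except siATF4 replicate 1, at 5.28 to 6.12 against 3.76 there. KMT2A and MLLT3 belong to no named feature, so the fusion was not checked here. Differences that siATF4 replicate 1 moved are also given without it. Leaving it out keeps siCTRL replicate 1, so where arrays lay together by replicate number the differences of same-numbered arrays are given beside that value.

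**Figure D1:**
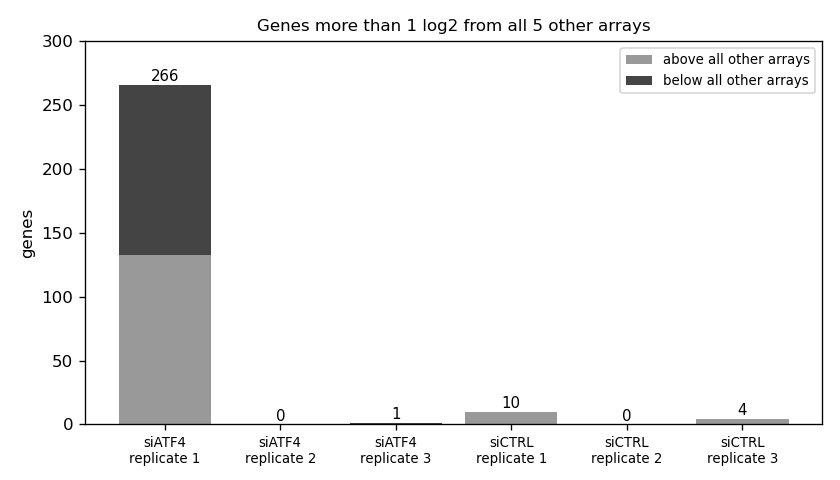
Number of genes (vertical axis, from 0) on each array that lay more than 1 log2 from all 5 other arrays, split into those above and those below them. siATF4 replicate 1 has 266 such genes, 133 on each side, and the other 5 arrays have 0 to 10.

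Most of the measured HOX transcripts were dim, and 10 of the 11 HOXA genes were not among those measured. Only 8 of the 33 members (24.2%) lay above the array median on all 6 arrays, where 53.9% of all named genes did: HOXA2, HOXB9, HOXC12, HOXD4, HOXD10, MEIS1, PBX2 and PBX3. A further 19 lay below the array median on every array, with levels from 2.84 to 3.93 log2, and the number above the upper quartile on all arrays was 2, PBX2 and PBX3, where 32.8% of all genes passed that mark. HOXC4, HOXC10, HOXD13 and MEIS2 were above the median on every array except siATF4 replicate 1, HOXC9 on 3 arrays and PBX4 on 1. These marks place a feature among all features of its array, and since features differ in how strongly they bind, they do not rank the genes by transcript number. In bulk RNA, fewer cells that use a gene and less RNA per cell cannot be told apart.

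**Figure D2:**
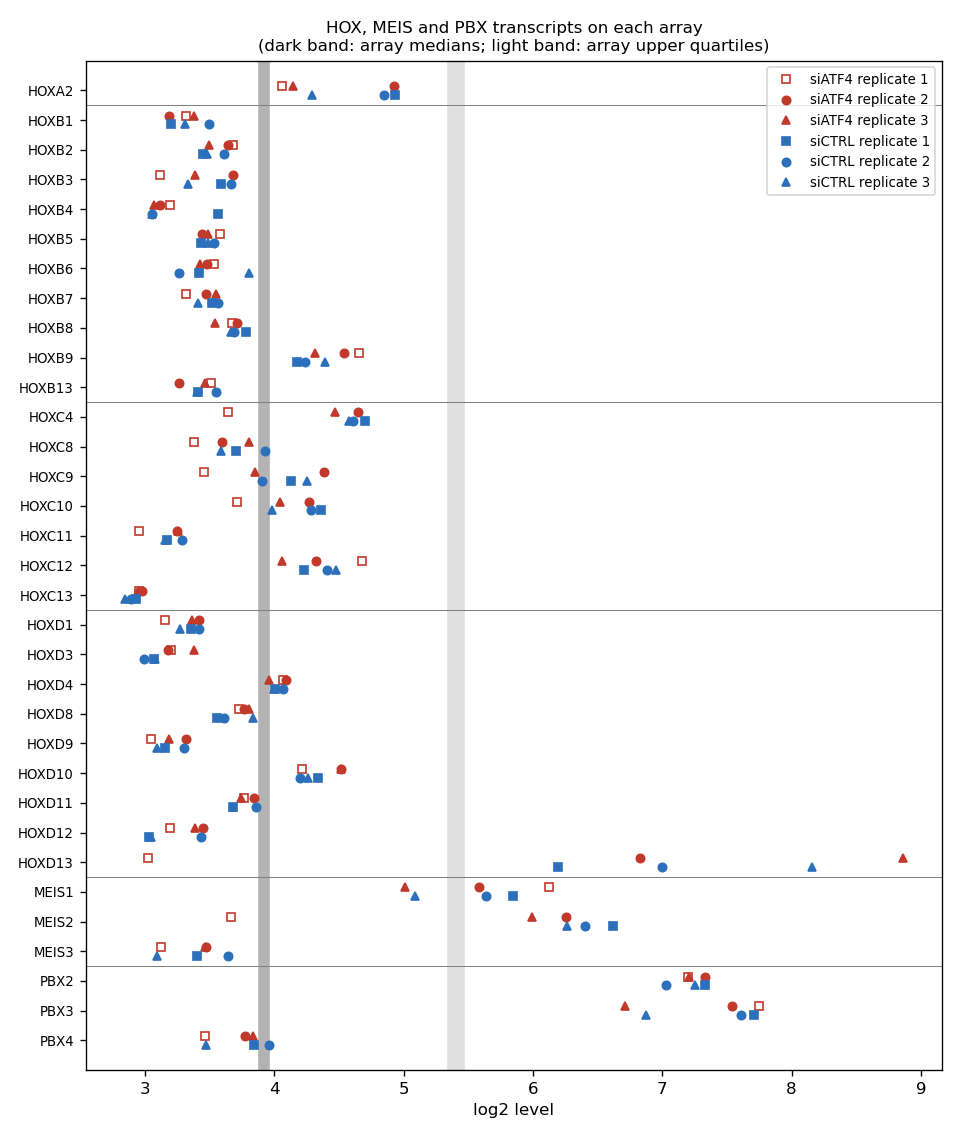
Log2 level (horizontal axis) of each of the 33 members on each array, siATF4 in red above siCTRL in blue, with replicate numbers by symbol and siATF4 replicate 1 as an open square. The bands show the array medians (3.88 to 3.96) and upper quartiles. HOXD13 and MEIS2 on siATF4 replicate 1 lie far left of their other 5 arrays.

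No member differed with siATF4 past the test. With limma, 0 of 33 members and 0 of 14884 genes (0%) reached an adjusted p below 0.05, and at an unadjusted p below 0.05 there were 0 members against 1.46% of all genes. Means were lower with siATF4 for 21 members and higher for 12, where 46.2% of all genes were lower. Without siATF4 replicate 1 the split was 14 lower and 19 higher. The median log2 difference over the members was -0.04, or 0.01 without that array, and over all genes it was 0.01. The groups did not overlap for 3 members (9.09%, where 5.89% of all genes did not): MEIS2 was below on every siATF4 array, as were 2.59% of all genes, and HOXC13 and HOXD3 were above, as were 3.30%. The sign was the same in all 3 pairs of arrays with one replicate number for 5 members (15.2%, against 23.6% of all genes), of which MEIS2 was lower (9.20% of all genes were) and HOXB2, HOXC13, HOXD3 and HOXD12 were higher (14.4% were). The median SE was 0.13 over the members and 0.15 over all genes, and the size of the difference was at least 0.5 for 2 members, MEIS2 and HOXD13 (6.06%, against 2.28% of all genes). The smallest two-sided exact permutation p that 3 arrays against 3 allow is 0.1.

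**Figure D3:**
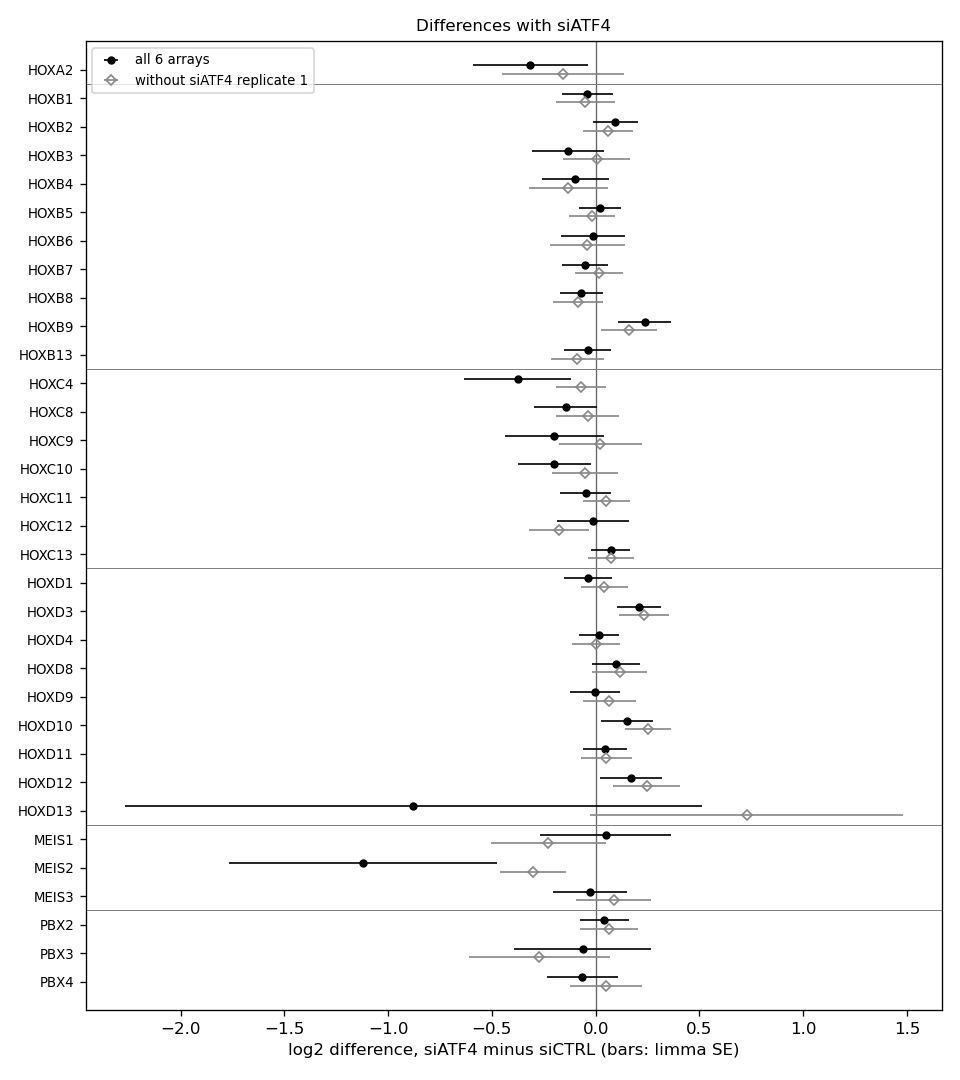
Log2 difference of each member, siATF4 minus siCTRL (horizontal axis), with limma's SE as bars, from all 6 arrays (black circles) and without siATF4 replicate 1 (grey diamonds). HOXD13 is at -0.88 with all arrays and at 0.73 without that one, and MEIS2 is at -1.12 and at -0.30.

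HOXA2, which patterns the hindbrain and the second pharyngeal arch, was the measured member of the HOXA cluster. It read 4.06, 4.92 and 4.14 with siATF4 against 4.93, 4.85 and 4.29 with siCTRL. The groups overlapped, with a high and a low level in both. The log2 difference was -0.31 (SE 0.28). It was -0.16 without siATF4 replicate 1, but -0.59 without siATF4 replicate 2 and -0.51 without siCTRL replicate 3.

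The HOXB cluster was dim except for HOXB9. HOXB1, HOXB2, HOXB3, HOXB4, HOXB5, HOXB6, HOXB7, HOXB8 and HOXB13 stayed below the array median on all arrays, between 3.06 and 3.80 log2, with log2 differences from -0.13 to 0.09 and SEs up to 0.17. HOXB4 is known for expanding haematopoietic stem cells when supplied, and here it read 3.19, 3.12 and 3.07 with siATF4 against 3.57, 3.06 and 3.06 with siCTRL. Only siCTRL replicate 1 was higher than the rest. HOXB2 had a positive sign in all 3 same-numbered pairs, at 0.23, 0.03 and 0.02. HOXB9, a posterior gene of the cluster, read 4.65, 4.54 and 4.32 with siATF4 against 4.17, 4.24 and 4.39 with siCTRL. Its groups overlapped through siATF4 replicate 3 and siCTRL replicate 3, and the log2 difference was 0.24 (SE 0.13, two-sided exact permutation p = 0.2), or 0.16 without siATF4 replicate 1.

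Of 7 measured HOXC genes, 5 were lowest on siATF4 replicate 1, namely HOXC4, HOXC8, HOXC9, HOXC10 and HOXC11. Over all members that array was the lowest for 13 of 33 (39.4%), where it was for 23.6% of all genes. It was the highest for 6 of 33 (18.2%), where it was for 22.8% of all genes. HOXC4, an anterior gene that lymphoid and myeloid cells are known to express, read 3.64, 4.65 and 4.47 with siATF4 against 4.70, 4.61 and 4.58 with siCTRL. Apart from siATF4 replicate 1 its levels lay from 4.47 to 4.70, and the log2 difference of -0.38 (SE 0.26) was -0.07 without that array and -0.57 without siATF4 replicate 2. HOXC9 was at -0.20 (SE 0.24) and HOXC10 also at -0.20 (SE 0.18), or 0.02 and -0.05 without it, and -0.44 and -0.33 without siATF4 replicate 2. HOXC8 (-0.15, or -0.04 without siATF4 replicate 1) and HOXC11 (-0.05, or 0.05) were dim on all arrays. HOXC12, a posterior gene, was the one HOXC member highest on that array, at 4.68, 4.32 and 4.06 with siATF4 against 4.23, 4.41 and 4.47 with siCTRL (difference -0.01, SE 0.18, or -0.18 without siATF4 replicate 1). HOXC13, known for its role in hair and nails, was higher on every siATF4 array (2.96, 2.98 and 2.95 against 2.93, 2.89 and 2.84 with siCTRL), a log2 difference of 0.07 (SE 0.09) among the lowest values of the arrays.

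HOXD13 varied more between arrays of the same group than nearly any other gene. This most posterior gene of the HOXD cluster, which shapes digits and the urogenital tract, read 3.02, 6.83 and 8.86 with siATF4 against 6.20, 7.0 and 8.16 with siCTRL. On siATF4 replicate 1 it was 3.17 log2 below the nearest other array, and it lay below that array's lower quartile. Its pooled within-group standard deviation of 2.21 log2 ranked 5 among 14884 genes, where the median gene had 0.18. The log2 difference was -0.88 (SE 1.39, two-sided exact permutation p = 0.8) and 0.73 (SE 0.75) without siATF4 replicate 1. In a limma fit that blocks on the replicate number the SE was 0.70. Same-numbered arrays differed by -3.17, -0.17 and 0.70, so the sign was not shared. Of all genes 0.403% lay more than 2 log2 from every other array on siATF4 replicate 1, and 2 members did, HOXD13 and MEIS2.

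The remaining HOXD genes did not vary this way. HOXD1, HOXD3, HOXD8, HOXD9, HOXD11 and HOXD12 stayed below the array median on all arrays, from 2.99 to 3.86 log2, with differences from -0.04 to 0.21. HOXD3 read 3.20, 3.18 and 3.38 with siATF4 against 3.07, 2.99 and 3.08 with siCTRL, a log2 difference of 0.21 (SE 0.11, two-sided exact permutation p = 0.1). Its groups did not overlap, at levels below the lower quartile of every array. HOXD12 was at 0.17 (SE 0.15), or 0.25 without siATF4 replicate 1, with pairs of the same number at 0.16, 0.02 and 0.34. HOXD10, a gene of limb and spinal cord patterning, read 4.22, 4.51 and 4.52 with siATF4 against 4.33, 4.20 and 4.26 with siCTRL, a log2 difference of 0.15 (SE 0.12), or 0.25 without siATF4 replicate 1. HOXD4 was steady, between 3.96 and 4.09, with a difference of 0.02 (SE 0.10). Its 2 features differed in sign (0.02 for the brighter and -0.12 for the dimmer).

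Among the MEIS cofactors, MEIS2 was lower on every siATF4 array and MEIS1 was not separated by group. MEIS2, which acts with HOX and PBX proteins in limb, brain and heart development, read 3.66, 6.26 and 5.99 with siATF4 against 6.62, 6.40 and 6.26 with siCTRL. The groups did not overlap, although siATF4 replicate 2 and siCTRL replicate 3 both round to 6.26. The log2 difference was -1.12 (SE 0.65, two-sided exact permutation p = 0.1, limma adjusted p = 1.00), and -0.30 (SE 0.16) without siATF4 replicate 1. Same-numbered arrays differed by -2.96, -0.15 and -0.27. The second, dimmer MEIS2 feature read 3.15, 3.99 and 3.91 against 4.08, 4.04 and 3.76 with siCTRL, again lowest on siATF4 replicate 1. Its groups overlapped, since siCTRL replicate 3 lay below siATF4 replicates 2 and 3. The log2 difference was -0.28 in that feature and -0.70 with the mean of both.

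MEIS1, the cofactor that KMT2A fusions are known to keep active, read 6.13, 5.58 and 5.01 with siATF4 against 5.84, 5.64 and 5.09 with siCTRL. Arrays of the same number lay close together and the groups overlapped. The log2 difference was 0.05 (SE 0.32, or 0.12 with the replicate block), or -0.23 (SE 0.28) without siATF4 replicate 1. Same-numbered arrays differed by 0.28, -0.06 and -0.08. MEIS3 was dim, from 3.10 to 3.65, with a difference of -0.03 (SE 0.18), or 0.09 without siATF4 replicate 1.

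PBX3, a HOX cofactor known to act with HOXA9 and MEIS1 in KMT2A-rearranged leukaemia, read 7.75, 7.54 and 6.71 with siATF4 against 7.71, 7.61 and 6.88 with siCTRL. The arrays numbered 3 were low in both groups. The log2 difference was -0.06 (SE 0.33, or 0.11 with the replicate block), or -0.27 (SE 0.34) without siATF4 replicate 1. Same-numbered arrays differed by 0.04, -0.07 and -0.16. PBX2, a broadly expressed family member, was steady at 7.20, 7.33 and 7.20 against 7.33, 7.03 and 7.25 with siCTRL (difference 0.04, SE 0.12). Its 6 features share sequence, gave nearly the same values and count as 1 measurement. PBX4, best known from the testis, was near the array median, with a difference of -0.06 (SE 0.17), or 0.05 without siATF4 replicate 1.

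The levels of MEIS1 and PBX3 lay together by replicate number across both siRNAs. MEIS1 stood at 5.01 and 5.09 on the 2 arrays numbered 3 and from 5.58 to 6.13 on the other 4. PBX3 stood at 6.71 and 6.88 on those 2 arrays and from 7.54 to 7.75 on the other 4. HOXD13 went the other way, at 8.86 and 8.16 on the arrays numbered 3 and from 3.02 to 7.0 elsewhere. Both arrays numbered 3 lay below the other 4 for 4 members, MEIS1, PBX3, HOXB8 and HOXD4, a share of 12.1% beside 12.5% of all genes, and above them for 2, HOXD13 and HOXD8, 6.06% beside 16.7%. Neither share was above the background.

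A limma F test of the replicate number beside the siRNA, chosen after the levels were seen, called 0 of 33 members and 0.894% of all genes at an adjusted p below 0.05. PBX3 had an adjusted p of 0.0657 in that limma test, MEIS1 of 0.0928 and HOXD13 of 0.162, so 2 members (6.06%) lay below 0.1, as did 3.92% of all genes. At an unadjusted p below 0.05 there were these 3 members (9.09%), where 16.5% of all genes passed. The test hung on single arrays. It called HOXA2, HOXD13, MEIS1 and PBX3, with 2304 genes in all, without siATF4 replicate 1, and those 4 with HOXC4 and MEIS2, with 3559 genes in all, without siCTRL replicate 1. It called 0 members and 0 genes without any one of the arrays numbered 2 or 3. Of the 11 measured myeloid markers, 8 were lower on both arrays numbered 3 than on the other 4, as were 12.5% of all genes. Of these markers 1 (MPO) was higher, as were 16.7% of all genes, and 2 (CTSG and SPI1) were neither. The mean over the 11 markers ranged from 7.82 to 8.54 with siATF4 and from 7.85 to 8.70 with siCTRL. It was lowest on number 3 in both groups. The lysozyme gene LYZ read 8.33 and 8.51 on the arrays numbered 3 and 10.4 to 10.9 elsewhere (limma adjusted p = 0.0314). MPO read 10.4 and 10.2 on those arrays and 5.58 to 9.53 elsewhere. The part of these markers in the levels of MEIS1 and PBX3 was not tested.

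**Figure D4:**
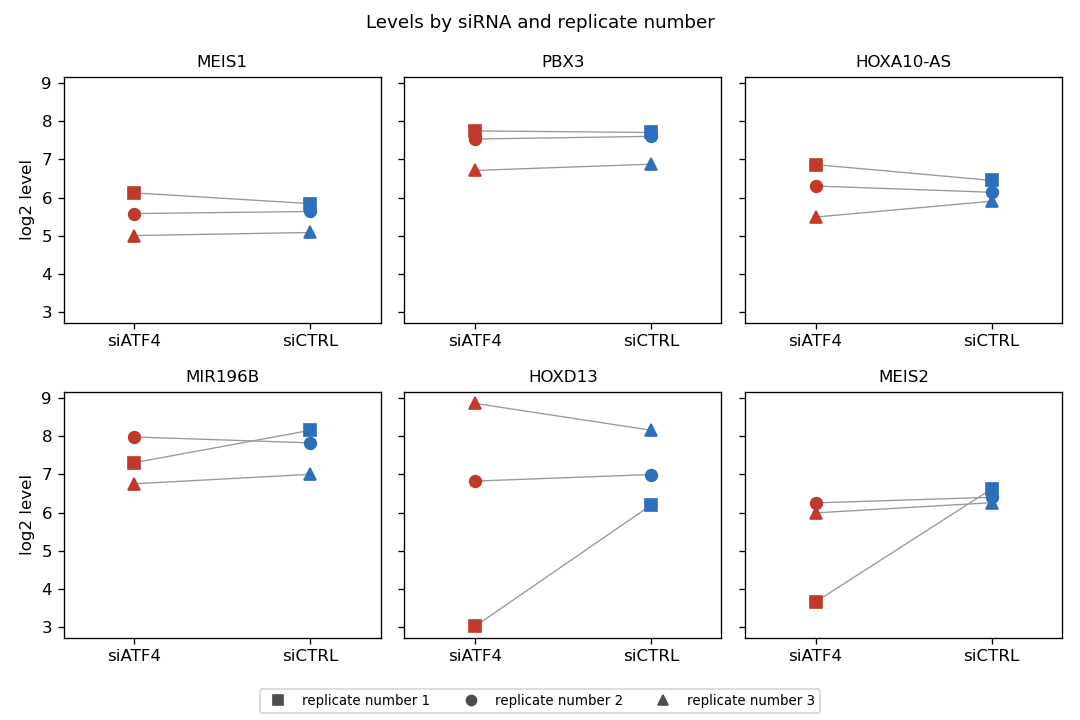
Log2 level (vertical axis) of MEIS1, PBX3, HOXA10-AS, MIR196B, HOXD13 and MEIS2 on siATF4 (left) and siCTRL arrays (right), with a line joining arrays of the same replicate number. The arrays numbered 3 lie lowest for MEIS1, PBX3, HOXA10-AS and MIR196B and highest for HOXD13, while MEIS2 is low on siATF4 replicate 1 alone.

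Non-coding transcripts of the HOX clusters gave the only other view of HOXA. Of 29 listed, 14 were measured, 5 higher and 9 lower with siATF4, 0 past the limma test, with a median log2 difference of -0.08. Above the array median on all arrays were 3, HOXA10-AS, HOXA11-AS and MIR196B, all from the posterior part of HOXA. HOTTIP, also of HOXA, was above it except on siATF4 replicate 1, at 3.68 there and 4.22 to 4.57 elsewhere. HOXA-AS3 was below it on every array, from 3.42 to 3.78. HOXA10-AS, an antisense transcript beside HOXA10, read 6.87, 6.31 and 5.49 with siATF4 against 6.45, 6.14 and 5.91 with siCTRL (difference 0.05, SE 0.34, or -0.27 without siATF4 replicate 1, with same-numbered arrays at 0.41, 0.16 and -0.42). MIR196B, whose mature form with the seed AGGUAGU is known to target HOX transcripts, read 7.31, 7.98 and 6.76 with siATF4 against 8.16, 7.83 and 7.0 with siCTRL (difference -0.31, SE 0.39). HOXA11-AS read 4.91, 5.03 and 4.60 with siATF4 against 5.25, 4.89 and 4.78 with siCTRL. In HOXA10-AS, MIR196B and HOXA11-AS the groups overlapped and the lowest array of each group was numbered 3. MIR196A2 in HOXC had the second largest difference of the list, -0.25 (SE 0.19), at levels from 3.43 to 4.20.

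Genes that set or read HOX activity showed 0 calls in limma in any list, at an adjusted or an unadjusted p below 0.05. A fit that blocks on the replicate number also gave 0 at an adjusted p, and 2 genes at an unadjusted p below 0.05, CBX6 and EYA1, where 3.12% of all genes passed. Among TALE cofactors outside the families above, 2 of 3 measured were higher and 1 lower, with PKNOX1, a partner of PBX, at 0.08 (SE 0.19) and TGIF1 at -0.06 (SE 0.20, or 0.10 without siATF4 replicate 1). TGIF1 was highest on the arrays numbered 3 in both groups, and its same-numbered arrays differed by -0.29, 0.0020 and 0.12. Of the KMT2A complex and fusion-partner machinery 11 of 26 were measured, 4 higher and 7 lower, with a median log2 difference of -0.02. The methyltransferase KMT2B was at -0.22 (SE 0.21) and the complex subunit WDR5 at 0.20 (SE 0.18), or -0.06 and 0.37 without siATF4 replicate 1. KMT2B was highest on the arrays numbered 3 in both groups, and its same-numbered arrays differed by -0.53, 0.14 and -0.29. Of Polycomb and other HOX repressors 22 of 29 were measured, 10 higher and 12 lower, with a median of -0.00. CBX6, a Polycomb subunit that reads histone methylation, was at 0.32 (SE 0.22, or 0.11 with the replicate block), with same-numbered arrays at 0.40, 0.31 and 0.26. PHC2, a subunit of the same class of complex, was at -0.28 (SE 0.17). PHC2 read 4.92, 4.76 and 4.96 with siATF4 against 5.0, 4.98 and 5.51 with siCTRL, without overlap. It was the 1 gene of the list with every siATF4 array below every siCTRL array, as were 2.59% of all genes, and 3 were above, CBX7, KDM6A and RING1, as were 3.30% of all genes. Their log2 differences were 0.21 for CBX7, 0.26 for KDM6A and 0.16 for RING1, or 0.12, 0.20 and 0.09 without siATF4 replicate 1. In the lists of TALE cofactors, KMT2A machinery and non-coding transcripts the groups overlapped for every gene.

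Genes linked to KMT2A fusions or to HOXA9 and MEIS1 were measured for 23 of 27, 13 higher and 10 lower with siATF4, with a median log2 difference of 0.04. The groups did not overlap for 1 of them, MYB, which was above on every siATF4 array, as were 3.30% of all genes. MYB read 9.64, 9.46 and 9.60 with siATF4 against 9.45, 9.44 and 9.30 with siCTRL. The growth factor receptor IGF1R had the largest difference, -0.83 (SE 0.75), and the same array set it: it read 3.39, 6.27 and 6.34 with siATF4 against 6.15, 6.14 and 6.21 with siCTRL, and was at 0.14 without siATF4 replicate 1. EYA1 was next in size at -0.26 (SE 0.34, or 0.10 with the replicate block), with same-numbered arrays at -0.28, -0.25 and -0.25. Without siATF4 replicate 1 it was at 0.0049, where siCTRL replicate 1, itself low, has no siATF4 array of the same number. FLT3, the receptor kinase mutated in this line, read 9.27, 9.58 and 8.19 against 9.67, 9.46 and 8.27 with siCTRL, low on number 3 in both groups. MEF2C, a transcription factor of KMT2A-rearranged leukaemia, read 7.92, 6.97 and 6.34 against 7.49, 7.07 and 6.53. The replicate number passed the limma F test for 2 of these 23 genes, the stem cell factor receptor KIT (adjusted p = 0.0395) and the pseudokinase TRIB2 (adjusted p = 0.0314), and for 1 of the 22 repressors, the Polycomb methyltransferase EZH2 (adjusted p = 0.0498), where 0.894% of all genes passed. Without any one of the arrays numbered 2 or 3 the test called 0 genes, these 3 included. Both arrays numbered 3 lay below the other 4 for 11 of the 23 linked genes and above them for 4. Of the 22 repressors 2 lay below and 12 above. Over all genes 12.5% lay below and 16.7% above, and the difference from these shares was not tested. EZH2 read 8.62 and 8.54 on the arrays numbered 3 and 7.46 to 7.63 elsewhere, and KIT 4.14 and 4.09 there and 5.41 to 6.48 elsewhere. TRIB2 read 6.66 and 7.12 on those arrays and 3.74 to 4.71 elsewhere.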

How the data were processed

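The deposited values, 1 for each of 53617 features and 6 samples, were read as log2 levels from their range (1.91 to 14.2); per the submitters' processing notes Partek was used, and the version, background correction, normalization, log base and genome build are not given in the sources used here. Per the labels' protocols, 100 ng of total RNA was labelled for each array. Array medians were nearly equal, so no further normalization was applied, and 0 columns were left unmapped. The platform's annotation gave 1 symbol to 16098 features, several to 0 and none to 37519. All 16098 gene identifiers matched the GRCh38.p14 gene table, which changed 0 symbols and was used for names and biotypes. The brightest feature stood for each of the 779 genes with several.

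Groups were compared in limma (version 3.58.1, under R 4.3.3), with lmFit and eBayes and group as the only term. The fit covered all 14884 named genes, with Benjamini-Hochberg adjustment and a threshold of 0.05. It was also run on simulated data with independent noise on each array. For the group fit these held no array set apart and no shared replicate number, so they do not cover those traits of the data. SE is limma's. The limit from olfactory receptor genes planned for the levels could not be set, since 1 such gene has a named feature, and the array median replaced it. No filter on dim genes was applied, and the number of arrays limits the precision. Every measured member was named, with the 2 largest differences of each further list. HOXA10-AS, HOXA11-AS, CBX3, CBX7, KDM6A, RING1, MYB, KIT, TRIB2, EZH2, FLT3, MEF2C, MEIS3P1 and the marker genes quoted were chosen after their values were seen. The members and lists were chosen with earlier results of these data known.

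Deviations from the group means correlated between same-numbered arrays at 0.20, 0.40 and 0.62 for numbers 1, 2 and 3. Such correlations were not computed between different numbers, and the labels state no pairing, so a pairing by all numbers is not shown. Over all genes the arrays numbered 3 correlated at 0.991 with each other. By the same measure siCTRL replicate 1 correlated at 0.966 with siATF4 replicate 1 and at 0.994 with siATF4 replicate 2. The fit with the number as a block is given as an alternative. The alternatives were quantile normalization, equal medians, the replicate block, array weights, eBayes with trend and robust options, dropping the dimmest 33% of genes, the mean of a gene's features, all features, and each array left out. Fits without both arrays of a number, the test of the replicate number, the distances of an array from the others and the upper-quartile mark were chosen after seeing the data.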

Additional observations from a re-analysis of the deposited data

How the results depend on the processing

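Under each other setting and each left-out array or pair of arrays, limma called 0 members and 0 genes between siATF4 and siCTRL. With the replicate block the counts were likewise 0, with 464 genes and 0 members at an unadjusted p below 0.05, and the block changed no call. At that unadjusted p in limma, 1 member passed with the trend and robust prior (202 genes) and 1 with array weights (352 genes). Without siATF4 replicate 2 there were 2 (395 genes), and without siATF4 replicate 3 there was 1 (342 genes). Without both arrays numbered 2 there was 1 (144 genes), as without both numbered 3 (313 genes). The other settings had 0. Of 33 members, 14 kept their sign in every fit with 1 array left out. Of these, HOXA2 ran from -0.59 to -0.16, HOXC4 from -0.57 to -0.07, HOXC10 from -0.33 to -0.05 and MEIS2 from -1.60 to -0.30. The log2 differences of the other 19 turned, all of them uncalled. They ran HOXB1 from -0.11 to 0.039, HOXB13 from -0.089 to 0.036, HOXB3 from -0.28 to 0.0049, HOXB4 from -0.18 to 0.071, HOXB5 from -0.020 to 0.052, HOXB6 from -0.13 to 0.14, HOXB7 from -0.10 to 0.014, HOXC11 from -0.10 to 0.050, HOXC12 from -0.18 to 0.13, HOXC9 from -0.44 to 0.023, HOXD1 from -0.091 to 0.042, HOXD13 from -2.19 to 0.73, HOXD4 from -0.0086 to 0.055, HOXD9 from -0.072 to 0.066, MEIS1 from -0.23 to 0.33, MEIS3 from -0.17 to 0.10, PBX2 from -0.046 to 0.10, PBX3 from -0.32 to 0.25 and PBX4 from -0.21 to 0.049. Signs also turned with quantile normalization (HOXD9 0.0093), equal medians (HOXB6 0.00033, HOXC12 0.00041 and HOXD9 0.010), array weights (HOXB6 0.044, HOXC11 0.0070, HOXC9 0.043, HOXD1 0.0055, HOXD9 0.056 and MEIS1 -0.13) and the mean of all features (HOXD4 -0.050). The dim filter left 13 members. The 8 members above the median on all arrays became 2 at the upper quartile.

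The 133 genes called for the replicate number became 213 with quantile normalization, 84 with equal medians, 324 with the trend and robust prior, where 1 member (PBX3, adjusted p = 0.0374 in limma) was called, and 32 with the dim filter. With 1 array left out they ran from 0 to 3559 and the members from 0 to 6. That test has few residual degrees of freedom, and the cause of its spread was not tested. Signal over background was not analysed here, so for the 19 members below every array median, no detection is claimed.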

Other observations

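Of homeobox genes and neighbours beside the HOX clusters 15 of 20 were measured, 8 higher and 7 lower with siATF4, 0 called in limma at an adjusted or an unadjusted p below 0.05, with a median log2 difference of 0.01. The groups did not overlap for 1 of them, CBX3, which was above on every siATF4 array, as were 3.30% of all genes. Its log2 difference was 0.21 (SE 0.11). DLX1 and DLX2, homeobox genes of forebrain and craniofacial development on the chromosome that holds HOXD, were both highest on siATF4 replicate 1. DLX1 read 7.96, 6.59 and 6.03 with siATF4 against 7.15, 6.46 and 5.93 with siCTRL. DLX2 read 7.49, 5.38 and 4.42 with siATF4 against 5.84, 5.13 and 4.94 with siCTRL. Their log2 differences were 0.34 (SE 0.53, or 0.17 with the replicate block) and 0.46 (SE 0.74, or 0.39 with the block). Without siATF4 replicate 1 they were -0.21 and -0.40, a fit that leaves siCTRL replicate 1 without a siATF4 array of the same number. Same-numbered arrays differed by 0.81, 0.13 and 0.09 for DLX1, all higher with siATF4, and by 1.65, 0.25 and -0.52 for DLX2. In limma's F test of the replicate number DLX1 had an adjusted p of 0.0643 and DLX2 of 0.182.

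MEIS3P1, a retrotransposed copy related to MEIS3, read 6.02, 3.50 and 3.45 with siATF4 against 3.53, 3.15 and 3.51 with siCTRL. It was 2.50 log2 above the nearest other array on siATF4 replicate 1, the array on which MEIS2 and HOXD13 were lowest. Its log2 difference of 0.93 (SE 0.67) was 0.08 without that array. PAX5, a B cell transcription factor, read 3.76, 6.05 and 5.28 with siATF4 against 6.12, 5.70 and 5.43 with siCTRL, again set apart on siATF4 replicate 1.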
